A study of Caenorhabditis elegans with 2 samples.

Results

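Peaks of the nuclear hormone receptor NHR-12 in one-way promoters of the Caenorhabditis elegans autosomes are described here. A one-way promoter is intergenic DNA from which transcription of protein-coding genes leaves on 1 side only. A peak was counted as a member when its summit lay 1 to 500 bp upstream of the 5′ end of a protein-coding gene, outside every protein-coding gene, and with no oppositely oriented protein-coding 5′ end transcribed away from it within 1000 bp. By this rule 2221 of the 23360 autosomal peaks in the pooled relaxed list were members (9.51%). The whole list held 29431 peaks, of which 29401 were nuclear. The rule used position alone, so the signal, replicate overlap and sequence of the members were not part of it, and the word promoter says only where a summit lay.

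In ChIP-seq, a tagged protein is pulled down with the chromatin it was crosslinked to, the recovered DNA is sequenced, and intervals rich in reads are called as peaks. The 2 samples are biological replicates of 1 group: whole L2 larvae of strain OP318, genotype unc-119(ed3) III with the integrated transgene wgIs318, which carries nhr-12 fused to eGFP. Animals of both sexes were pooled, and DNA fragments of 150 to 350 bp were selected. There was no other condition, so nothing was tested between groups, and the members are not replicates of anything because they share the same libraries. The labels do not give the promoter of the transgene or the cells in which it is active, and in whole larvae a strong site in few cells and a weak site in many cannot be told apart. Animals lacking the tag were not analysed here, so the share of any signal that came from NHR-12 itself was not tested.

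Nuclear hormone receptors are transcription factors with a zinc-finger DNA-binding domain and, usually, a ligand-binding domain, and the family is greatly enlarged in nematodes. In C. elegans many genes lie close together, some in operons, and most mRNAs receive a spliced leader by trans-splicing. The annotated 5′ end of a gene is therefore often the splice acceptor of the leader, with transcription starting further upstream, so the distances below are distances to annotated ends and not to measured start sites. Peaks over the promoters of broadly active genes are common to many factors in worm ChIP-seq, and such shared regions are known as highly occupied target regions.

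Sequences at some of the 14 strongest members are shown first, because the letters around the summit differed with signal. Each is the 101 bp window centred on the summit, read from the WBcel235 genome of RefSeq (the ce11 assembly) on the strand of the downstream gene, 5′ to 3′. Capitals mark GACGCA or AAGTGT or AACACG on either strand. These 3 hexamers were picked after values of these data had been seen, and different ones among them can share no more than 1 base. The first 4 windows hold GACGCA, the next 3 hold AAGTGT or AACACG without it, and the last 3 hold none of the 3. The windows of F36A2.7, eif-3.C and Y87G2A.25, at ranks 3, 5 and 10, hold GACGCA too but are not printed. Neither is that of cox-5B, at rank 13. The make-up of the printed set is therefore not that of the strongest members. The windows lie at III:3867529-3867629 (+ strand) for rpl-3, III:12905153-12905253 (+ strand) for cox-5A, V:10897305-10897405 (- strand) for sec-61.G and IV:17249818-17249918 (+ strand) for eelo-2. Those of cdc-48.1, rpl-35 and dnj-9 lie at II:10563537-10563637 (- strand), III:7854637-7854737 (+ strand) and II:4851758-4851858 (+ strand). Those of his-37, sor-1 and ufbp-1 lie at V:9546960-9547060 (+ strand), III:8417674-8417774 (+ strand) and III:8443820-8443920 (- strand).
rpl-3: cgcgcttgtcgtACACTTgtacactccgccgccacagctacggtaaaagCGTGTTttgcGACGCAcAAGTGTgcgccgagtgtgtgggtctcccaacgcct
cox-5A: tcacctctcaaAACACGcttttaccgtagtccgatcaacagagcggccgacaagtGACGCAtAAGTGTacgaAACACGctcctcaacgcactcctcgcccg
sec-61.G: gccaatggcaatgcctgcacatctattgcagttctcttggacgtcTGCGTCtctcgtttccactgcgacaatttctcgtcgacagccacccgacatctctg
eelo-2: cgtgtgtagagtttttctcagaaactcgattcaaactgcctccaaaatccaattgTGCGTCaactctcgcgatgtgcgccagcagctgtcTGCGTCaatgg
cdc-48.1: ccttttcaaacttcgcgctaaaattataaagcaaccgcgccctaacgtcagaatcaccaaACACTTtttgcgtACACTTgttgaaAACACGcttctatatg
rpl-35: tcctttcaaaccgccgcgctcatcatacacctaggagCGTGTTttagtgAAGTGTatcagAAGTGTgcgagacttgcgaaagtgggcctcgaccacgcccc
dnj-9: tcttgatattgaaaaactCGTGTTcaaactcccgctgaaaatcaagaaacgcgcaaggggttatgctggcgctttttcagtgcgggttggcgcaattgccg
his-37: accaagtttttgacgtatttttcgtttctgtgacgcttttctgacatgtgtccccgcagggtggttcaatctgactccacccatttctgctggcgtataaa
sor-1: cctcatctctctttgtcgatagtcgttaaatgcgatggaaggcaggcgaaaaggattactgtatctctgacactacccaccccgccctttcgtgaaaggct
ufbp-1: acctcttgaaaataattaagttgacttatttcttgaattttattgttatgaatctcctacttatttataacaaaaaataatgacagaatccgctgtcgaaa

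The 10 windows were not alike in composition. That of rpl-3 had a GC content of 59.4% and those of cox-5A and rpl-35 both 54.5%, while that of ufbp-1 had 25.7%. In the rpl-3 and cox-5A windows GACGCA stood next to AAGTGT, with AACACG close by, so both windows held all 3 hexamers.

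Genes of protein synthesis and export held 4 of the 8 strongest members. The peak upstream of rpl-3, a gene for a large-subunit ribosomal protein, had a signal of 170.9 in the pooled list, 58.7 in the list of replicate 1 and 110.9 in that of replicate 2. Its summit lay 275 bp upstream of the gene. The signal is the authors' own value for each peak, on a scale that differs between lists, so it is compared only within a list; in both replicate lists this was the highest of all members. The peak of eif-3.C, a subunit of translation initiation factor 3, had 93.4 in the pooled list, 19.1 in replicate 1 and 70.4 in replicate 2. That of rpl-35, also of the large subunit, had 75.7, 24.97 and 47.2 in the same order and lay further out, at 447 bp. The peak of sec-61.G, a subunit of the channel that moves new proteins into the endoplasmic reticulum, had 90.2, 28.3 and 62.2.

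Genes of the mitochondrion and of protein turnover were among the strongest too, with cdc-48.1 and cox-5A above every member just described except rpl-3. The peak of cox-5A, a subunit of cytochrome c oxidase, had a signal of 103.2 in the pooled list, 33.3 in replicate 1 and 68.9 in replicate 2. The peak of cox-5B, a subunit of the same enzyme, had 57.2, 17.7 and 36.7, and its summit lay only 28 bp from the annotated 5′ end. The peak of sco-1, a copper chaperone of that enzyme, had 43.7, 9.37 and 31.8. All 3 were found in both replicates. The peak of cdc-48.1, the AAA ATPase known as p97 in mammals, had 108.1, 35.9 and 68.9, the highest pooled signal after rpl-3. The peak of ufbp-1, named for binding the ubiquitin-like protein UFM1, had 54.2, 10.5 and 52.0. That of wwp-1, a HECT-type ubiquitin ligase, had 46.6, 9.62 and 37.6, and that of vps-4, an ATPase of membrane sorting, had 43.2, 8.39 and 33.8. The peak of lgg-2, of the family of autophagy proteins that includes LC3, had 45.0, 19.1 and 25.9.

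Several genes of the nucleus were also among the 25 strongest members. The peak of lin-9, a subunit of the DRM complex that represses cell cycle genes, had 48.3 in the pooled list, 11.9 in replicate 1 and 36.6 in replicate 2. The peak of pcn-1, the sliding clamp of DNA replication, had 43.6, 18.2 and 27.5. The peak of rpb-11, a subunit of RNA polymerase II, had 45.2, 12.6 and 33.3. Each of these peaks was in both replicate lists. The peak of sor-1, a gene of Polycomb-like repression, had 62.0, 13.8 and 40.5, and that of dnj-9, a DnaJ-domain protein, had 58.4, 7.68 and 48.7. The peak of dnj-9 stood at rank 1631 in replicate 1 and at rank 64 in replicate 2, a wide gap for so strong a pooled peak. The peak of his-37, a core histone gene, had 73.3 in the pooled list and 26.9 in replicate 1, and no peak of replicate 2 overlapped it. Histone genes have near-identical copies, so reads could be shared among them and the value is uncertain.

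The other 7 of the 25 strongest were F36A2.7, eelo-2, Y87G2A.25, W03F8.4, Y73F8A.27, usp-39 and K12H4.5. The peak of F36A2.7 had the third highest pooled signal, 107.6, with 26.1 in replicate 1 and 80.9 in replicate 2. Of the 25, only the peak of his-37 was missing from a replicate list.

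**Figure D1:**
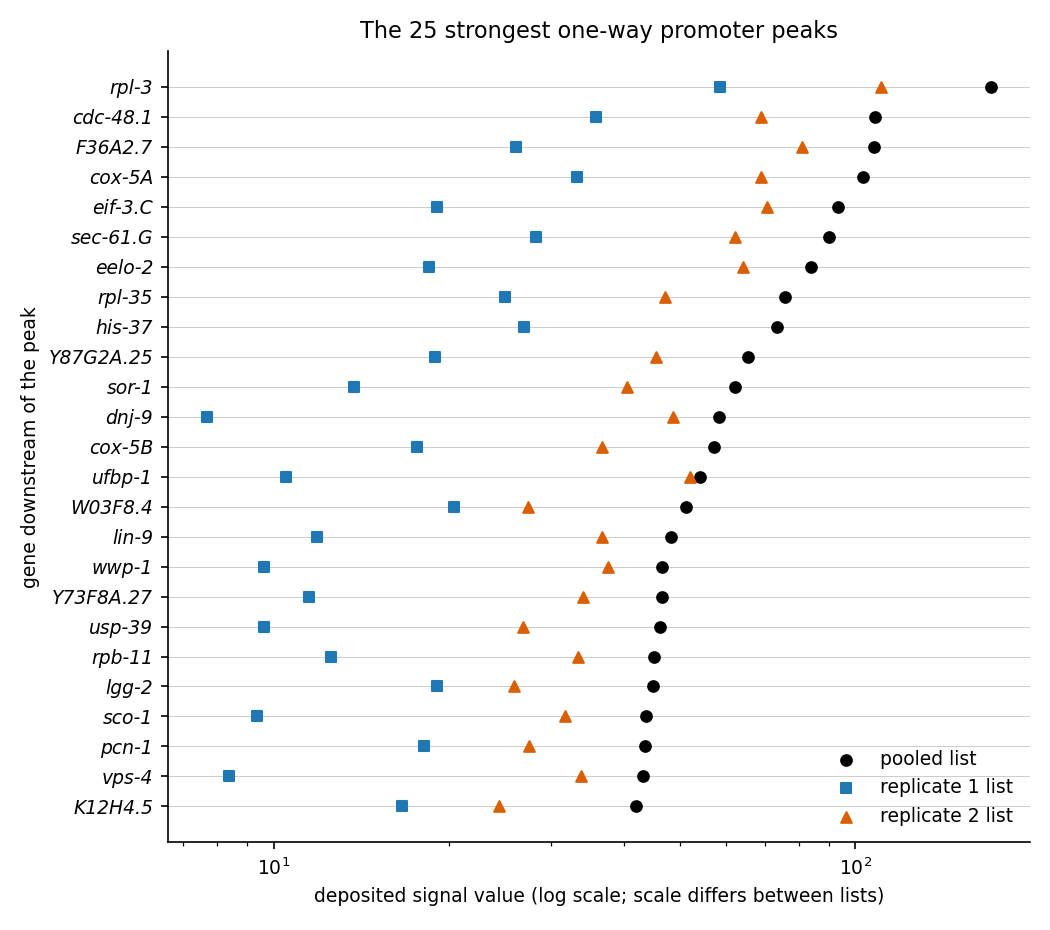
Signal value (log scale) of the 25 members with the highest pooled signal, in the pooled list (circles), the list of replicate 1 (squares) and that of replicate 2 (triangles), with the downstream gene on the vertical axis. The scale differs between lists, so the offset between symbols is not a difference between samples; rpl-3 is highest in all 3, and his-37 has no triangle.

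Across all members the pooled signal ran from 9.21 to 170.9, with quartiles of 11.03 and 16.95 and a median of 13.3. The other 21139 autosomal peaks had a median of 12.5 and a highest value of 139.9. The median of the members was 1.06 times that of the other peaks in the pooled list, 1.06 times when the rule was applied to the list of replicate 1 (2158 peaks) and 1.06 times on that of replicate 2 (2201 peaks). The typical member was therefore close to the typical autosomal peak, and the distance between them grew toward the top. The 90th percentile was 22.3 among members and 19.2 among the others, a ratio of 1.16 in the pooled list, 1.19 in replicate 1 and 1.12 in replicate 2. Of the members, 163 (7.34%) were among the 1000 strongest peaks of the pooled list, against 3.26% of all autosomal peaks. On the lists of the replicates these shares were 6.44% against 3.14% and 6.45% against 3.19%. These are descriptions of peaks from 2 libraries and no test stands behind them.

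Divergent promoters, which have 5′ ends leaving on both sides, are the most similar class. Their peaks were stronger than members at the median, at the 90th percentile and above it. At the 0.99 quantile of the pooled list they had 80.7, against 43.5 for members. Among the 1000 strongest pooled peaks were 20.1% of them, against 7.34% of members. Their single highest value was lower, 107.0 against 170.9 for rpl-3. The 551 divergent peaks had a median signal of 15.3 and a 90th percentile of 32.3. Their median was 1.22 times that of all other autosomal peaks in the pooled list, 1.26 times in replicate 1 and 1.16 times in replicate 2, so the order of these medians was the same in each list. One-way promoter DNA came to 5.205 Mb, or 6.30% of the autosomes, and held 427 members per Mb. Divergent promoter DNA held 526 peaks per Mb, other intergenic DNA 344 and the inside of genes 237, against 283 over the autosomes as a whole.

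**Figure D2:**
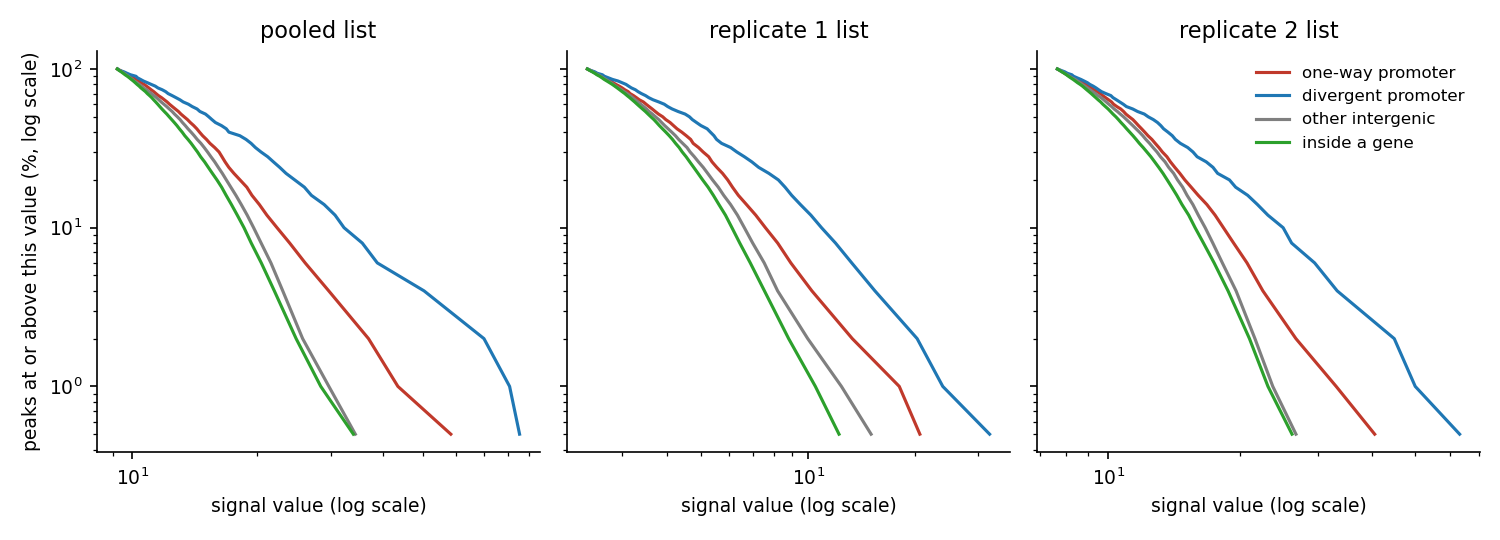
Share of peaks (percent, log scale) with at least the signal value on the horizontal axis (log scale), for 4 classes of autosomal peaks in each of the 3 lists. At the median and at the 90th percentile the line of the one-way promoters lies between those of the divergent promoters and of the remaining classes in all 3 panels; at the weakest values the lines meet, and the strongest peak of each class is not drawn.

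A shorter deposited list was thresholded by IDR, the irreproducible discovery rate, which measures how alike replicates rank their peaks. It held 228 peaks, 157 of them autosomal. An overlap of at least 1 bp with a thresholded peak was found for 47 members (2.12%), against 0.762% of all autosomal peaks. For divergent promoters it was 42 peaks (7.62%), for other intergenic peaks 40 (0.499%) and for peaks inside genes 49 (0.390%). Per Mb of DNA the thresholded count was 9.03 in one-way and 40.1 in divergent promoters. Membership of that list followed the pooled signal closely, so the count is not independent of it.

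Of the 47 members, 43 were themselves in the thresholded list, all at rank 225 or better in the pooled list. Among them were the peak of his-37, which no peak of replicate 2 overlapped, and that of tbc-14, which was among the weakest peaks of replicate 1. The weakest of these lay upstream of imb-3, an importin, with a pooled signal of 37.6, and the strongest member outside the list lay upstream of timm-17B.1, a subunit of the mitochondrial import machinery, with 37.1. The other 4 only overlapped a thresholded interval. They were a peak of pie-1, a maternal zinc-finger gene of the germline, with 29.2, and additional weaker peaks of K12H4.5 (21.3), vig-1 (16.4) and mrpl-32 (13.3). The pie-1 interval was 1094 bp wide, while 2218 members were 320 bp wide, so its overlap says little about where the signal lay.

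Beyond the 25 strongest, the thresholded members included further genes of basic cell functions. The peak of tba-2, an alpha-tubulin, had a pooled signal of 40.6, with 18.2 in replicate 1 and 19.1 in replicate 2. That of tif-1A, an initiation factor of RNA polymerase I, had 40.5, 12.8 and 26.3, and that of cmtr-1, an mRNA cap methyltransferase, had 39.6, 18.5 and 22.2. None of these 3 ranked below 1455 in either replicate list, which did not hold for every member. The peak of tbc-14, which encodes a TBC-domain protein, had 39.5, 2.43 and 35.7, and stood at rank 29475 of 30000 in replicate 1 and at rank 113 in replicate 2. Genes of pyruvate oxidation were represented by dld-1, dihydrolipoamide dehydrogenase (38.2, 6.44 and 33.1), and pdhk-2, pyruvate dehydrogenase kinase (38.3, 14.1 and 21.2). The bHLH factor hlh-11 (41.3, 16.7 and 26.3) and the chemoreceptor gene srw-145 (37.7, 10.8 and 25.2) were the thresholded members of their families.

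Replicate overlap was uneven between the libraries. The pooled list was made from the same 2 replicates, so overlap with either is not independent of it. Of the members, 1057 (47.6%) overlapped a peak of replicate 1, against 41.6% of all autosomal peaks. For replicate 2 it was 1813 (81.6%), against 80.2%, a share near the background. Both replicates held 788 members (35.5%), against 29.4%. A further 1025 were found in replicate 2 only, 269 in replicate 1 only and 139 in neither. The median pooled signal was 16.4 for members in both, 12.8 for those in replicate 2 only, 11.3 for those in replicate 1 only and 10.6 for those in neither. The strongest member of replicate 2 only was that of mrpl-28, a mitochondrial ribosomal protein (35.9), and the strongest in neither was that of dhhc-6, named for its palmitoyltransferase domain (22.9). Both replicate lists held 30000 peaks, and why members overlapped replicate 2 more often was not tested.

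Ranks agreed only loosely between replicates. Across the 788 members found in both, Spearman's rho between the signals was 0.29, and it was 0.20 among the 742 that did not overlap a thresholded peak and 0.25 among the 46 that did. It was 0.42 for 271 divergent peaks and 0.15 for 6070 other autosomal peaks. These correlations are across peaks of the same 2 libraries and are descriptions only. The 50 strongest one-way peaks of replicate 1 lay upstream of 49 genes and those of replicate 2 upstream of 50, and 15 genes were in both sets (30.6% and 30%).

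**Figure D3:**
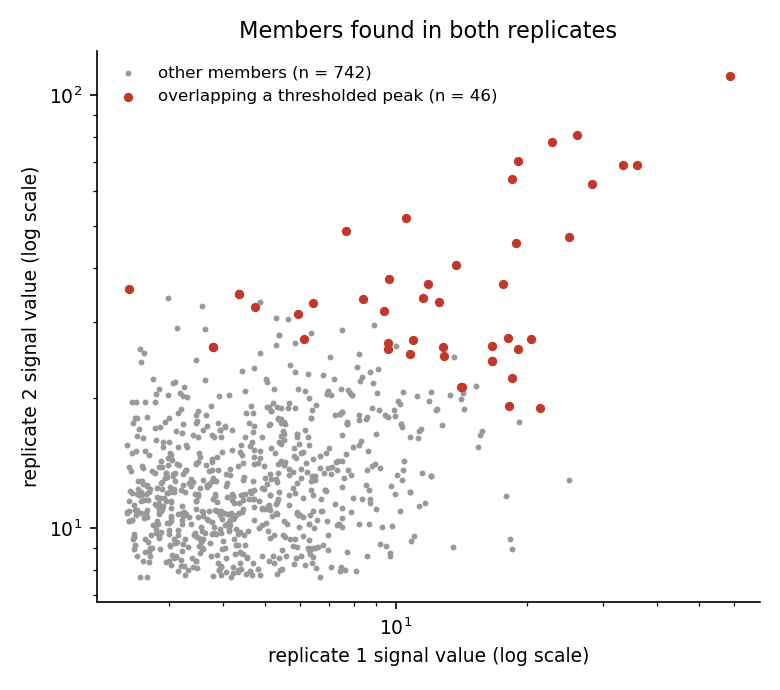
Signal value of replicate 1 (horizontal) and replicate 2 (vertical), both on log scales, for the 788 members overlapped in both lists; red points overlap a thresholded peak (46) and grey points do not (742). Most grey points form a cloud with little slope, while rpl-3 stands alone at the upper right with 58.7 and 110.9.

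The strongest members gathered in a single stretch of the promoter more than the rest did. The median distance from summit to 5′ end was 247 bp, with quartiles of 130 and 354 bp. The bin of 201 to 300 bp held 519 members (23.4%) and 19.6% of one-way promoter DNA, or 508 members per Mb. The bin of 1 to 100 bp was lowest, with 343 per Mb. Among the 50 strongest members, 24 (48%) had a summit 201 to 300 bp upstream. That share was 20.7% for members at ranks 51 to 200, 21.3% at ranks 201 to 1000 and 24.1% from rank 1001 on. The bin was also the fullest for the 50 strongest one-way peaks of replicate 1, with 17, and of replicate 2, with 23. In divergent promoters the 50 strongest pooled peaks had 14 in that bin, 15 at 1 to 100 bp and 14 at 101 to 200 bp. Over all members Spearman's rho between signal and distance was 0.04 (n = 2221), a measure that does not see a maximum in the middle of the range. The 90th percentile of signal was highest in the same bin, at 23.7, and lay between 20.6 and 22.9 in the other 4.

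At the edges of the rule little changed. The 39 members at 491 to 500 bp had a median signal of 12.5, and the 41 peaks just outside, at 501 to 510 bp, had 12.2. The 19 members whose nearest opposite 5′ end was 1001 to 1050 bp away had a median of 14.7, and the 12 peaks excluded with 1 at 951 to 1000 bp had 14.1.

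GC content also set the 50 strongest members apart, but those at ranks 51 to 200 lay in between. Within 50 bp of the summit the 50 strongest members had a median GC content of 48.0%, those at ranks 51 to 200 had 36.1%, those at ranks 201 to 1000 had 27.7% and the rest 28.7%. A GC content of 40% or more was found in 37 of the 50 strongest (74%) and in 312 of all members (14.05%). The 5951 one-way promoters with no peak, read at 247 bp upstream, had a median of 33.7%, above that of the members as a whole. In the lists of the replicates the 50 strongest had 48.5% and 41.6%. The 50 strongest divergent peaks had 50.5% in the pooled list, 48.5% in replicate 1 and 47.5% in replicate 2. All divergent peaks of the pooled list had a median of 31.7%. High GC content at the strongest summits was therefore shared with divergent promoters. Across all members Spearman's rho between signal and GC content was 0.09. GC content can affect how DNA is amplified and sequenced, and its part in these signals was not tested.

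**Figure D4:**
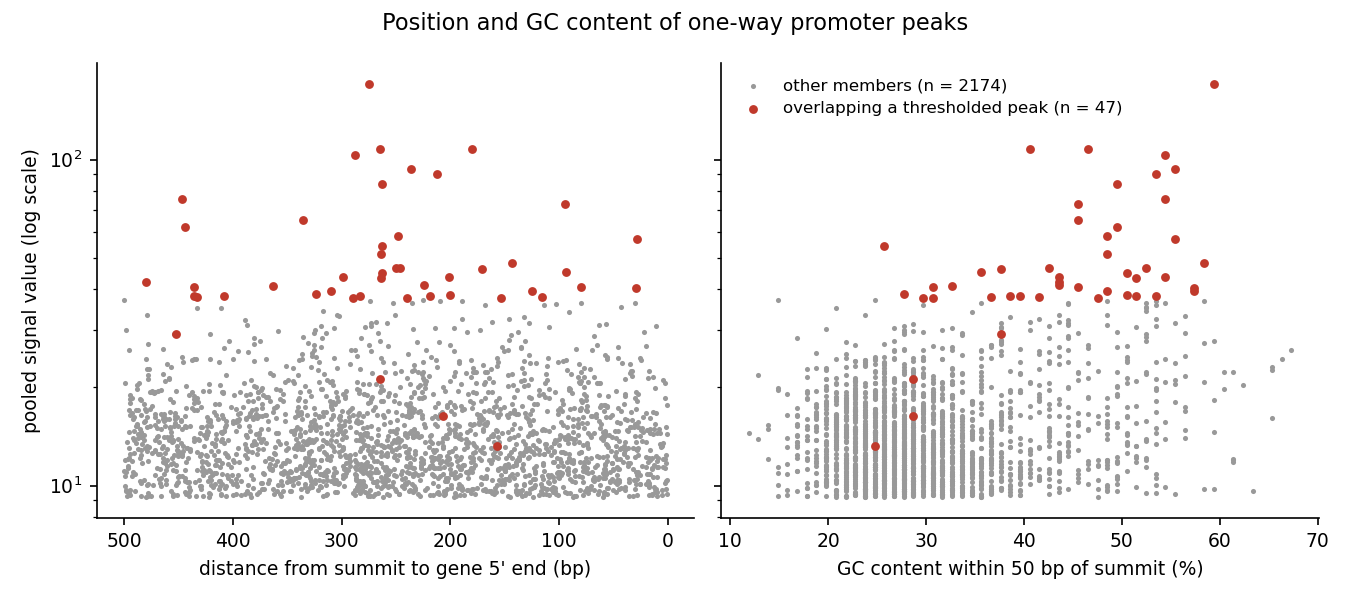
Pooled signal (log scale) of all 2221 members against the distance from summit to annotated 5′ end (left, bp) and against GC content within 50 bp of the summit (right, percent); red points are the 47 members that overlap a thresholded peak. On the left the strongest points gather between 200 and 300 bp; on the right they lie mostly above 40%, away from the bulk near 28.7%.

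The hexamer GACGCA, printed in capitals in the windows of rpl-3, cox-5A, sec-61.G and eelo-2, became rarer as signal fell. It was present within 50 bp of the summit, on either strand, in 15 of the 50 strongest members (30%), in 21 of the 150 at ranks 51 to 200 (14%), in 29 of the 800 at ranks 201 to 1000 (3.63%) and in 21 of the remaining 1221 (1.72%). Over all members it was in 86 (3.87%), and over all divergent windows in 38 of 551 (6.90%). The share was thus higher in the most similar class, and the word was not particular to members. It was in 2.76% of one-way promoters with no peak and in 1.57% of other autosomal peak windows. Among windows of 40 to 60% GC the shares were 32.4%, 25.5%, 13.3% and 9.17% down the same 4 ranges, and 5.83% in promoters with no peak. Since the word was picked with the strongest windows already seen, its share there is a description and supports nothing. Besides those shown, the 15 genes were F36A2.7, eif-3.C, Y87G2A.25, W03F8.4, Y73F8A.27, rpb-11, mrpl-32, tbc-14, pdhk-2, srw-145 and imb-3.

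The other printed hexamers were each in 10 of the 50 strongest windows (20%). Over all members AAGTGT was in 6.62% and AACACG in 3.87%, close to their shares in promoters with no peak, 6.72% and 3.76%. At ranks 51 to 200 the shares were 6.67% and 7.33%. The core hexamer AGGTCA, which many nuclear receptors of other animals recognise, was in 1 of the 50 strongest windows (2%) and in 42 of all members (1.89%), against 2.97% of promoters with no peak. Related words did not stand out among the 50 strongest either, with AGTTCA in 2, AGTCCA in 1 and GGGTCA in 0. The run AAAAAA went the other way from GACGCA, with 26% of the 50 strongest windows, 56.7% of all members and 46.2% of promoters with no peak. Other words from the same search showed the AT-rich make-up of the bulk. TATAAA was in 6% of the 50 strongest windows, 17.4% of all members and 12.5% of promoters with no peak. For TTTCAG, the usual splice acceptor letters of the worm, the shares were 8%, 19.99% and 17.2%, and for the GATA core TGATAA 4%, 10.99% and 10.4%. GC-rich words went the other way: GCGCGC was in 8%, 1.76% and 1.19% and GGGCGG in 6%, 1.85% and 2.49%. GAGAGA was in 12%, 6.30% and 6.25%, the E-box CAGCTG in 4%, 1.31% and 1.85%, and the E-box CACGTG in 0, 1.71% and 1.70%. An E2F-like word was in 6%, 0.810% and 0.655%, the C/EBP palindrome in 2%, 0.180% and 0.151%, the CRE palindrome in 0, 0.495% and 0.756%, and a longer GATA word in 0, 0.405% and 0.521%. A match is only a match of letters, and its absence from these windows says nothing about binding.

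The members lay upstream of 2166 genes, 17% of the 12720 autosomal protein-coding genes that have one-way promoter DNA. Of these, 54 genes had more than 1 member and none had more than 3. A member overlapping a thresholded peak was found for 44 genes (0.346%). The median of the strongest signal per gene was 13.4. The gene lists below were counted against these shares, and no list was tested.

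Cytosolic ribosomal protein genes had members most often of all the lists counted. Of the 29 autosomal ones with one-way promoter DNA, 19 had a member (65.5%), with 21 peaks or 1665 per Mb of their one-way DNA, against 427 for all genes. Their median strongest signal was 26.1, against 13.4. The count was 18 on the list of replicate 1 and 17 on that of replicate 2, and 14 genes were in both. A member overlapping a thresholded peak was found for 2 of the 29, rpl-3 and rpl-35, against 44 of all 12720 genes (0.346%). The next were rpl-6, with a pooled signal of 33.4, 14.3 in replicate 1 and 18.8 in replicate 2, rpl-41.2 (33.0, 13.3 and 20.3) and rps-4 of the small subunit (31.5, 12.4 and 18.8). Among its genes with only 1 peak the lowest were rps-17 (11.8) and rps-24 (11.9), below the median of all members, so not every gene of the list was high. Summits within it lay between 59 bp, for a weak additional peak of rpl-29, and 478 bp, for rps-25. Only 29 of the 79 autosomal genes of the list have one-way promoter DNA, and strong divergent peaks included such genes too. Among the 50 strongest divergent peaks, 5 were theirs in the pooled list, 5 in replicate 1 and 6 in replicate 2. Among the 50 strongest one-way peaks it was 2, 6 and 2.

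Other lists of protein synthesis and energy production had smaller counts, but a high number of peaks per Mb was not particular to ribosomal protein genes. It was 1392 for respiratory chain genes, 1191 for initiation and elongation factors and 1168 for proteasome genes. For splicing genes it was 1060 and for mitochondrial ribosomal protein genes 1017. Heat shock genes had 613, aminoacyl-tRNA synthetases 555, histones 450 and the vacuolar ATPase 427, the last equal to all genes. Of 18 genes for respiratory complexes or ATP synthase 7 had a member (38.9%), led by cox-5A and cox-5B and then nduf-11 of complex I (31.6) and cyc-1, cytochrome c1 (18.2). Of 16 genes for initiation and elongation factors 6 had a member (37.5%), but after eif-3.C the strongest was eif-3.G with 16.6, and the median was 12.6, below that of all genes. Of 40 mitochondrial ribosomal protein genes 9 had a member (22.5%), led by mrpl-32 (41.0) and mrpl-28 (35.9). Aminoacyl-tRNA synthetase genes had 3 of 19 (15.8%). Proteasome genes had 4 of 11 (36.4%), led by rpn-11 (23.6), and vacuolar ATPase genes 2 of 12 (16.7%). Splicing and RNA processing genes had 5 of 17 (29.4%) with a median of 20.8, led by snr-4, a core snRNP protein (24.3). Heat shock and DnaJ genes had 5 of 25 (20%), led by dnj-9 and then hsp-1 (31.0), and histone genes 3 of 14 (21.4%), led by his-37. With so few genes a list, a difference of 1 or 2 genes moves these shares by several points.

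The family of NHR-12 itself was close to the background. Of 223 nuclear hormone receptor genes with one-way promoter DNA, 45 had a member (20.2%, against 17%). A member overlapping a thresholded peak was found for 0 of them, against 0.346% of all such genes. At so low a share, a count of 0 among 223 genes says little. The strongest was that of nhr-31, with 34.9 in the pooled list and 29.3 in replicate 2, and no peak in replicate 1. The peak of nhr-256 had 31.6, 10.1 and 19.6, that of nhr-92 had 30.2 and 28.3 with none in replicate 1, and that of nhr-283 had 22.8, 4.13 and 20.3. Support in replicate 1 was thus missing for 2 of the 4 strongest. Of all members 47.6% overlapped a peak of replicate 1, and of those at ranks 51 to 200 80.7% did. A count among 4 peaks is too small to set against these shares. The nhr-12 gene had no peak inside it or within 500 bp upstream, and the nearest summit was 23445 bp away. This gene has only 114 bp of one-way promoter DNA. The strain also carries nhr-12 in the transgene, and what that does to peaks at the gene was not tested. For unc-119, the gene mutated in the strain, no peak lay upstream and 4 lay inside. Of other transcription factors, bHLH genes had 3 of 22 (13.6%), led by hlh-11 (41.3), and homeobox genes 5 of 49 (10.2%), led by ceh-88 (14.1).

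Genes of detoxification and metabolism, which nuclear receptors often regulate, had members mostly without high signal. Cytochrome P450 genes had 17 of 58 (29.3%) with a median strongest signal of 13.7, UDP-glucuronosyltransferase genes 10 of 49 (20.4%) with 16.7, and glutathione S-transferase genes 8 of 38 (21.1%) with 12.05. In none of these did a member overlap a thresholded peak, which held for only 0.346% of all genes with one-way promoter DNA. Over all such genes the share with a member was 17% and the median 13.4. The cytochrome P450 share and the UDP-glucuronosyltransferase median were above these. The highest values were 19.9 for cyp-37A1, 19.2 for ugt-26 and 27.4 for gst-27. The value of gst-27 was above 22.3, the 90th percentile of all members. Its peak stood at rank 117 in replicate 1 and at rank 20106 in replicate 2. Genes of fatty acid metabolism and binding had 11 of 74 (14.9%), led by far-5 (20.6), a fatty acid and retinol binding protein.

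The large families of chemoreceptor, F-box, cuticle collagen and C-type lectin genes were near or below the background. Chemoreceptor genes had 187 of 1139 (16.4%), with srw-145 (37.7) and srh-269 (37.0) far above their median of 13.04. F-box genes had 26 of 210 (12.4%), cuticle collagen genes 13 of 92 (14.1%), led by col-54 (24.8), and C-type lectin genes 17 of 172 (9.88%). The pqn genes, which encode glutamine- and asparagine-rich proteins, were counted after their values had been seen. They had 8 of 37 (21.6%), against 17% of all genes. Among them pqn-27 (38.8) and pqn-70 (38.5) overlapped thresholded peaks, which held for 0.346% of all genes with one-way promoter DNA.

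Markers of tissues were counted to see which tissue's genes were represented. Body wall muscle markers had 5 of 13 (38.5%), led by unc-60, which encodes ADF/cofilin (28.5), and neuronal markers 5 of 15 (33.3%), led by unc-64, a syntaxin (17.999). Intestinal markers had 2 of 8 (25%), germline markers 5 of 54 (9.26%), hypodermal and seam markers 1 of 22 (4.55%) and pharyngeal markers 0 of 16. Apart from the wide pie-1 interval no marker overlapped a thresholded peak, and only 0.346% of all genes with one-way promoter DNA did. Lists of this size give no order of tissues.

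**Figure D5:**
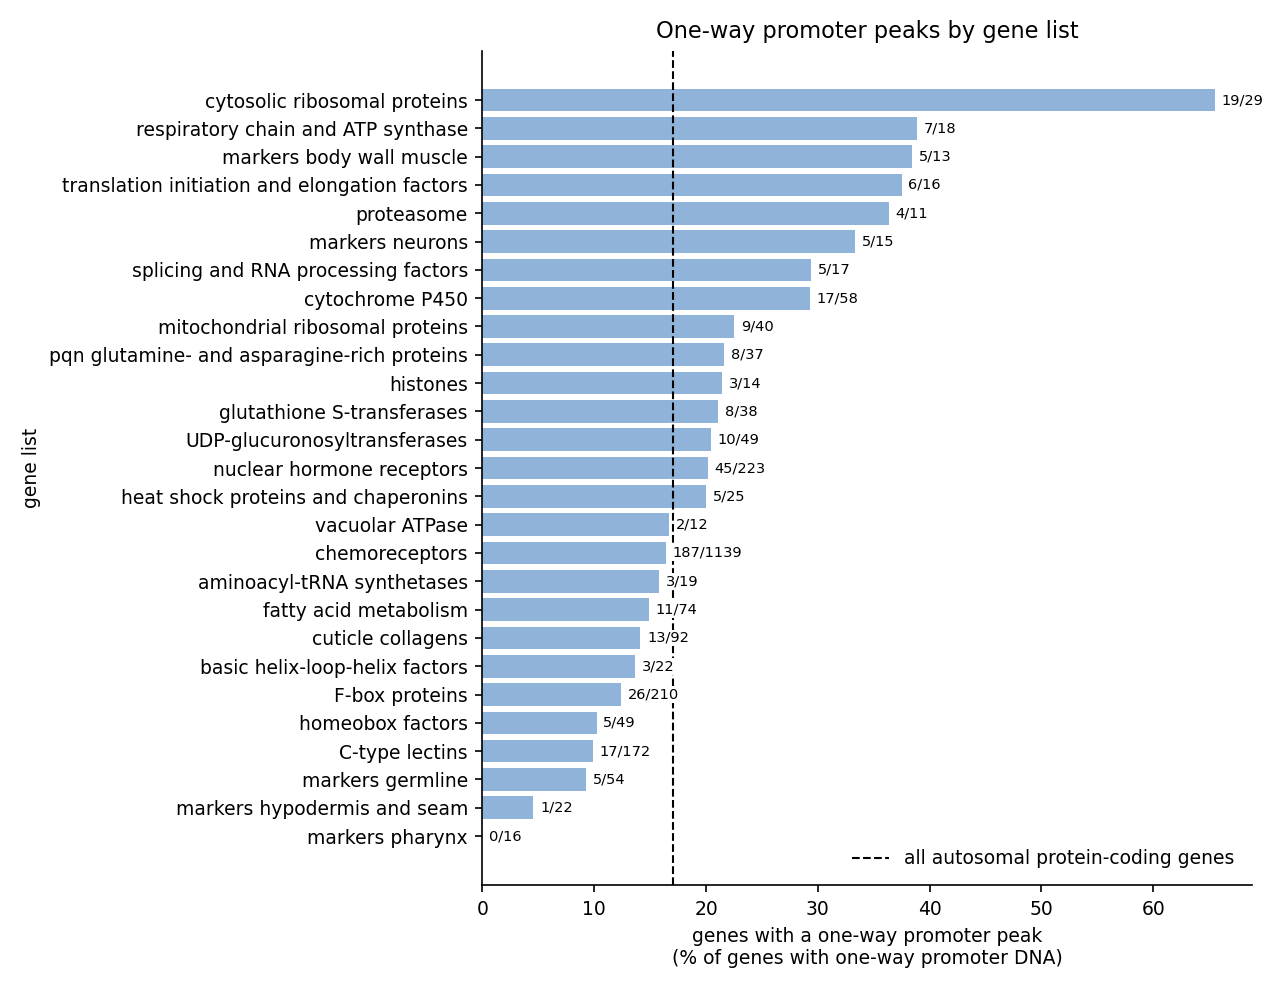
Share of genes with at least 1 member (percent of the genes that have one-way promoter DNA) in each gene list with 10 or more such genes, with counts beside the bars; the dashed line is the share over all autosomal protein-coding genes, 17%. Cytosolic ribosomal protein genes reach 65.5%, and nuclear hormone receptor genes lie near the line at 20.2%.

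The gene on the other side of the peak, away from the downstream gene, was in the same orientation for 1498 members (67.4%), with a median gap of 648.5 bp between that gene and the summit, and in the opposite orientation for 722 (32.5%), with a median gap of 3032 bp, where the rule itself sets a gap of over 1000 bp. Among the 47 that overlap a thresholded peak the counts were 28 and 19. An annotated non-coding gene contained the summit of 61 members, among them 29 classed as ncRNA, 11 pseudogenes and 10 piRNA genes. For wwp-1 an ncRNA gene and for tif-1A a snoRNA gene contained the summit, so those peaks have more than 1 possible target by position.

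Members were spread over all 5 autosomes. Chromosome V held most, 646 (29.1% of members, against 24.0% of autosomal peaks), and chromosome IV held 467 (21.03%, against 26.2%). On chromosome III 16 of 356 members (4.49%) overlapped a thresholded peak, 13 of them being in that list themselves, against 1.32% of all peaks of the chromosome. On chromosome V it was 5 of 646 (0.774%), against 0.374% of all its peaks. The shares of members and of all peaks were both lower on chromosomes IV and V than on the other 3. The median signal was between 13.1 and 13.6 on each chromosome, a narrow range beside the spread of members within each.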

How the data were processed

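The authors deposited peak lists, not reads: a relaxed list for each of the 2 replicates, a relaxed list for the pooled replicates and a list thresholded on IDR, each called against a control, per the deposited notes. The deposited signal value and the deposited −log10 q-value of each peak are the caller's own. The signal was used to rank, filter and describe peaks within 1 list, and the −log10 q-value was not used for any result. The sources used here do not give the peak caller, aligner, settings or IDR cutoff. Read depth is unknown, so no interval that needs it is given. Lists on ce10 were not used, and 0 columns of per-sample values were left unmapped.

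Positions are those of the ce11 lists, counted from 1. Genes came from Ensembl release 115 (WBcel235) and sequence from the RefSeq genome of the same assembly. Each summit was sorted by the positional rule, with the gene's outermost annotated 5′ end, and the sorting was tested on simulated data. Overlap means at least 1 bp. Promoters with no peak were read at 247 bp upstream, the median distance of the members. Motifs were 17 short words, plus GACGCA and the other 2 printed hexamers, searched on both strands within 50 bp of the summit; overlapping words were counted separately. Genes were named by rule: those at the 25 strongest members, those with a thresholded member, up to 4 per gene list, and nhr-12 and unc-119. Members named outside it, such as dhhc-6, timm-17B.1 and some ribosomal protein genes, were chosen after their values were seen.

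The members and the 28 gene lists were chosen with earlier results of these data known. Entries that did not belong were removed from 5 lists (initiation and elongation factors, respiratory chain, homeobox, fatty acid and pharynx) after counts had been seen, for gene identity and not for values. The work used Python 3.11.15, numpy 2.4.6, pandas 2.3.3, scipy 1.17.1 and matplotlib 3.10.9.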

Additional observations from a re-analysis of the deposited data

How the results depend on the processing

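The upstream limit set most counts. At 250 bp there were 1125 members of 1121 genes, with a median distance of 132 bp and a signal ratio of 1.04 to other autosomal peaks. At 1000 bp there were 3641 members of 3308 genes, with 399 bp and 1.06. Keeping only the upper 50% of peaks by signal left 1256 members of 1240 genes, raised the thresholded share to 3.74% and the share found in both replicates to 49.4%, and gave a ratio of 1.05. That share fell to 20.3% when summits had to lie within 100 bp and to 25.6% when 50% of both intervals had to overlap. Leaving out each replicate in turn gave 2158 to 2201 members, 2057 to 2138 genes, a median distance of 231 to 245 bp and a ratio of 1.06 in both. The share of members overlapping the 228 strongest peaks of the remaining replicate, in place of the thresholded list, was 1.71% in both. The median GC content of the 50 strongest was 41.6% without replicate 1. Of the 50 strongest, 17 to 23 lay 201 to 300 bp upstream when a replicate was left out, against 24. With a wider limit for opposite 5′ ends there were 1936 members of 1888 genes, and the thresholded share was 1.70%; at the 1000 bp upstream limit that share was 1.62%. In all, 55 values stayed within 1.5 times the count, the 95% interval or the replicate SD set for them, and 18 did not. The signal ratio without replicate 1 was among those that did not, though it rounds to the same value. No paired analysis was possible because there is only 1 group. Depth is unknown, which limits what the absence of a peak can show.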
